A study of Rattus norvegicus with 2 samples.

Results

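The genes described here are 10 genes of the Nrf2 antioxidant response and of the adaptor protein p62, measured as mRNA in the thymus of rats with and without repeated cocaine. They are Nfe2l2, Keap1, Sqstm1, Hmox1, Nqo1, Gclc, Gclm, Txnrd1, Srxn1 and Prdx1. They were picked by gene symbol in the annotation of the array, with earlier results of these data known. All 10 were found, each with 1 transcript cluster (a set of short probes for 1 gene), among 15037 named genes. Thymus RNA came from male Sprague-Dawley rats, 8 weeks old when divided into groups. According to the methods, they were killed 1 day after the last administration. The cocaine rat received 20 mg/kg/day cocaine hydrochloride i.v. for 7 days, and the control rat, labelled as not stimulated, received saline according to the methods. Each group was 1 rat on 1 Clariom S array. The labels name thymus as the tissue, while their note on RNA extraction names spleen. With 1 array per group no test was possible, no error can be given, and each difference has no replicate check. In whole thymus RNA, a change in the number of cells of a type and a change in RNA per cell cannot be told apart.

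Nrf2, encoded by Nfe2l2, is a transcription factor that is held in the cytoplasm by Keap1 and marked there for degradation by the Cul3 ubiquitin ligase. When oxidants or electrophiles modify Keap1, Nrf2 accumulates, pairs with a small Maf protein and binds antioxidant response elements in front of its target genes. p62, encoded by Sqstm1, carries ubiquitinated cargo to autophagosomes, can bind Keap1 in place of Nrf2, and is known as a target of Nrf2 itself. Much of this control acts on the proteins, which the arrays do not measure. The thioredoxin system, part of this response, is known to be needed by proliferating thymocytes in mice.

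Sqstm1 was the only 1 of the 10 genes that differed by more than 1.5-fold between the cocaine and control thymus. It was higher with cocaine, while the regulators Nfe2l2 and Keap1 and all 7 classical target genes lay within 1.5-fold. Of these targets, Hmox1, Nqo1 and Srxn1 were dim, below the median of the negative control rows on both arrays. Of the 10 genes, 1 (Sqstm1) was higher by more than 1.5-fold, where 2.09% of all 23188 transcript clusters were, and 0 were lower by as much, where 2.51% of all were. By any amount, 5 of the 10 were higher (37.0% of all transcript clusters), 3 were lower (35.9%) and 2 were identical as deposited (27.2%). The median log2 difference, cocaine minus control, was 0.06 over the 10 genes and 0 over all transcript clusters. Without Sqstm1 the median of the other 9 genes was 0, with a range from -0.41 to 0.18.

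**Figure D1:**
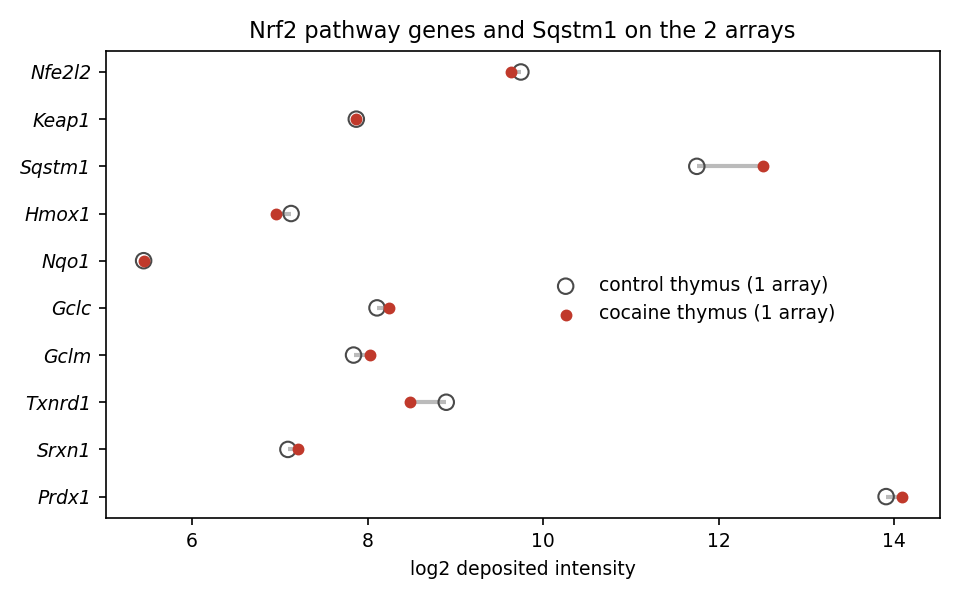
Log2 deposited intensity of the 10 genes in the control thymus (open circles) and the cocaine thymus (red points), 1 array each. Sqstm1 shows the widest gap, from 11.75 to 12.51, and the 2 symbols of Keap1 and of Nqo1 coincide.

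The regulators did not differ by more than 1.5-fold at the mRNA level. Nfe2l2 had an intensity of 859 on the control array and 796 on the cocaine array, a log2 difference of -0.11. Among all transcript clusters, counted from the brightest, it ranked 5287 (control) and 5574 (cocaine). Keap1, which holds Nrf2 back, had an intensity of 234 on both arrays, identical to the last deposited digit. Its rank was 8874 (control) and 8937 (cocaine). Identical values were common on these arrays, also among transcript clusters about as bright as Keap1, of which 25.4% were identical. All 23 genomic background control rows were identical too. An identical value, here and below, is therefore not read as a measured lack of difference, and the origin of such values was not tested. Here and below, transcript clusters of like brightness are those in the same of 20 equal bins of mean log2 intensity.

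Sqstm1 had an intensity of 3449 on the control array and 5814 on the cocaine array. The value was 1.69-fold higher with cocaine, a log2 difference of 0.75. Its rank moved from 2407 in the control to 1667 with cocaine. By difference, Sqstm1 stood 170 among the 23188 transcript clusters, counted from the highest, at percentile 99.3. Among the 1987 transcript clusters at least as bright as Sqstm1, only 6, itself included, had a difference as large or larger. The named ones of the other 5 were Ifi27, an interferon-inducible gene, at 1.59, Lrwd1, whose protein binds the origin recognition complex, at 0.81, and Vps52, a subunit of the GARP complex of vesicle traffic, at 0.77. These 3 genes were picked after their values were seen. Of 1159 transcript clusters of like brightness, some dimmer than Sqstm1, 6, Sqstm1 included, had a difference as large or larger. The central 95% of differences among transcript clusters of like brightness ran from -0.42 to 0.51, and Sqstm1 lay above it. The 3 named genes with the most similar levels on both arrays were Prkch, a protein kinase C gene, Uggt1, which codes for a glucosyltransferase of glycoprotein quality control, and the histone gene Hist1h2an. Their distances from Sqstm1 over the 2 arrays were 0.05, 0.13 and 0.18 on the log2 scale. With 2 arrays, such likeness says only that a level and a difference were close. In immunoblots of thymus after 7 days of cocaine, the paper saw no difference in p62 or LC3-II from control. Those blots measured protein, while the values here are mRNA.

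**Figure D2:**
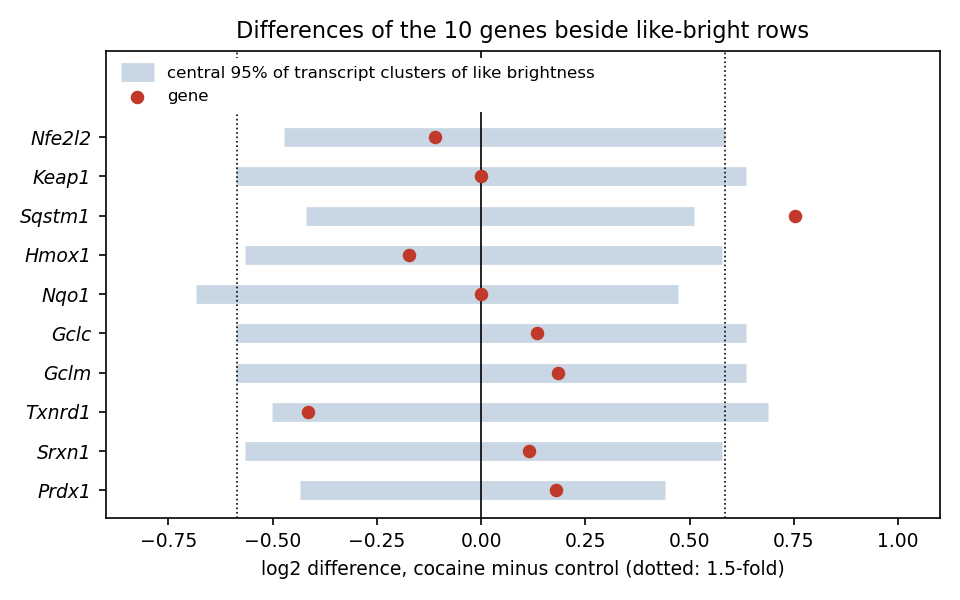
Log2 difference, cocaine minus control, of each gene (red points) on the central 95% of differences among transcript clusters of like mean intensity (blue bars), with dotted lines at 1.5-fold. Sqstm1 at 0.75 lies outside its bar, and the other 9 genes lie inside theirs, Txnrd1 at -0.41 closest to an end.

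Antioxidant response elements are short, so the region before the start site of these genes can be read directly. Promoters from RefSeq (build GRCr8), from 250 bases before to 50 bases after a start site, were given for 9 of the 10 genes, with 2 start sites for Txnrd1. The core of the element, TGACNNNGC, and the motif TGAGTCA, which AP-1 and the related Nrf2 dimers can bind, were searched on both strands. The 2 can overlap, as they do in GCTGAGTCA. TGACNNNGC was found in promoters of 4 genes (Nfe2l2, Gclm, Txnrd1 and Prdx1) and TGAGTCA in those of 2 (Srxn1 and Prdx1). Of all 33469 promoters in the table, 12.1% held TGACNNNGC and 4.63% held TGAGTCA. In Keap1, Sqstm1, Nqo1 and Gclc these letters were not found in this window, and nothing follows for other windows. Below are the 250 bases before the start site of Sqstm1, which had the highest difference, of Txnrd1 (the second listed start site), which had the lowest, and of Prdx1 and Gclm, which hold the element core too. Each is read 5′ to 3′ along the gene, in lower case, with matches to either motif in capitals. A match on the opposite strand appears as its reverse complement.
Sqstm1, chr10:35037751-35038000, minus strand: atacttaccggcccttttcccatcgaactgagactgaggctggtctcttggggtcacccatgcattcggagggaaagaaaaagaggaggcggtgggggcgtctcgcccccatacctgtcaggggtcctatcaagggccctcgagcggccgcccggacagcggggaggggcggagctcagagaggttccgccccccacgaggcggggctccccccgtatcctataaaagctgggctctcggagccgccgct
Txnrd1, chr7:22755905-22756154, minus strand: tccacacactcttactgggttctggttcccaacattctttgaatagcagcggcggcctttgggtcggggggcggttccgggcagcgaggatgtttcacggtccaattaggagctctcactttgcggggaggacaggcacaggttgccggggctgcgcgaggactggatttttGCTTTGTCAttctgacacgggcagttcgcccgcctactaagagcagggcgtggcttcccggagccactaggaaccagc
Prdx1, chr5:135383656-135383905, plus strand: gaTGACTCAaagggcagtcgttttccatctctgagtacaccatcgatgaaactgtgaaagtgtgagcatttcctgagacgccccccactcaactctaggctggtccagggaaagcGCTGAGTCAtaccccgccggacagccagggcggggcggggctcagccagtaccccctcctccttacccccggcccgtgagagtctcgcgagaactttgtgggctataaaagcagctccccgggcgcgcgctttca
Gclm, chr2:213031885-213032134, plus strand: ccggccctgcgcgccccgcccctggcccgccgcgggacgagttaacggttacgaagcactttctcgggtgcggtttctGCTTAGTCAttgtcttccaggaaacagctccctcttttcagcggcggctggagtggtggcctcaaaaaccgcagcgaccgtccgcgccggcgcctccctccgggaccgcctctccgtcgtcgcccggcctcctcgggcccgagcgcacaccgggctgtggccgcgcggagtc

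The matches lay at different distances from the start site. In Prdx1 the element core spanned bases -135 to -127, on the strand opposite to the gene, and overlapped the motif TGAGTCA, at -133 to -127. Another match to that motif lay at -248 to -242. In Gclm the core lay at -172 to -164 and in Txnrd1 at -78 to -70, both on the opposite strand. The match in Nfe2l2 lay after the start site, at bases 39 to 47. Srxn1 held TGAGTCA at -62 to -56 and at -5 to 2. A match is a description of the letters and not evidence of binding. Differences of the 4 genes with the core were -0.11 (Nfe2l2), 0.18 (Gclm), -0.41 (Txnrd1) and 0.18 (Prdx1), so genes with it were found on both sides of 0.

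Glutathione synthesis is led by glutamate-cysteine ligase, whose catalytic subunit is encoded by Gclc and whose modifier subunit is encoded by Gclm. Gclc had an intensity of 276 on the control array and 303 on the cocaine array, a log2 difference of 0.14. Gclm had an intensity of 229 (control) and 261 (cocaine), a log2 difference of 0.18. Both subunits were thus slightly brighter in the cocaine thymus, by 9.83% and 13.7%. Gclc ranked 8384 (control) and 8181 (cocaine), and Gclm ranked 8936 and 8619. Both lay well within the central 95% of like brightness, from -0.59 to 0.64.

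Genes of the thioredoxin branch lay on both sides of 0. Txnrd1, cytosolic thioredoxin reductase, which passes electrons from NADPH to thioredoxin, had an intensity of 477 on the control array and 358 on the cocaine array. The value was 1.33-fold lower with cocaine, a log2 difference of -0.41 and the lowest of the 10 genes. Its rank went from 6805 to 7723. Of 1159 transcript clusters of like brightness, 39, Txnrd1 included, had a difference as low or lower, and Txnrd1 lay inside their central 95%, from -0.50 to 0.69. Prdx1, a peroxiredoxin that reduces hydrogen peroxide with electrons from thioredoxin, had an intensity of 15381 (control) and 17415 (cocaine), a log2 difference of 0.18. It was the brightest of the 10 on both arrays, at rank 805 (control) and 747 (cocaine), though intensities of different probe sets do not measure relative amounts of mRNA. Srxn1, sulfiredoxin, which repairs overoxidized peroxiredoxins, had an intensity of 137 (control) and 148 (cocaine), a log2 difference of 0.12. Its rank was 10608 (control) and 10375 (cocaine).

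Hmox1 and Nqo1, the targets most often used to read out Nrf2, showed no difference beyond 1.5-fold. Hmox1, heme oxygenase 1, which breaks heme down to biliverdin, iron and carbon monoxide, had an intensity of 140 on the control array and 124 on the cocaine array. Its log2 difference was -0.17, and its rank went from 10518 to 11010. Nqo1, a quinone reductase, had an intensity of 43.7 on both arrays, identical as deposited, at rank 16444 (control) and 16262 (cocaine). Of transcript clusters as dim as Nqo1, 33.0% were identical. The 1153 rows named as negative controls had a median intensity of 167 (control) and 169 (cocaine). Hmox1, Nqo1 and Srxn1 lay below that median on both arrays. The other 7 genes lay above it on both. That median is above the median of all transcript clusters, 108 (control) and 107 (cocaine), so many transcript clusters lie below it.

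**Figure D3:**
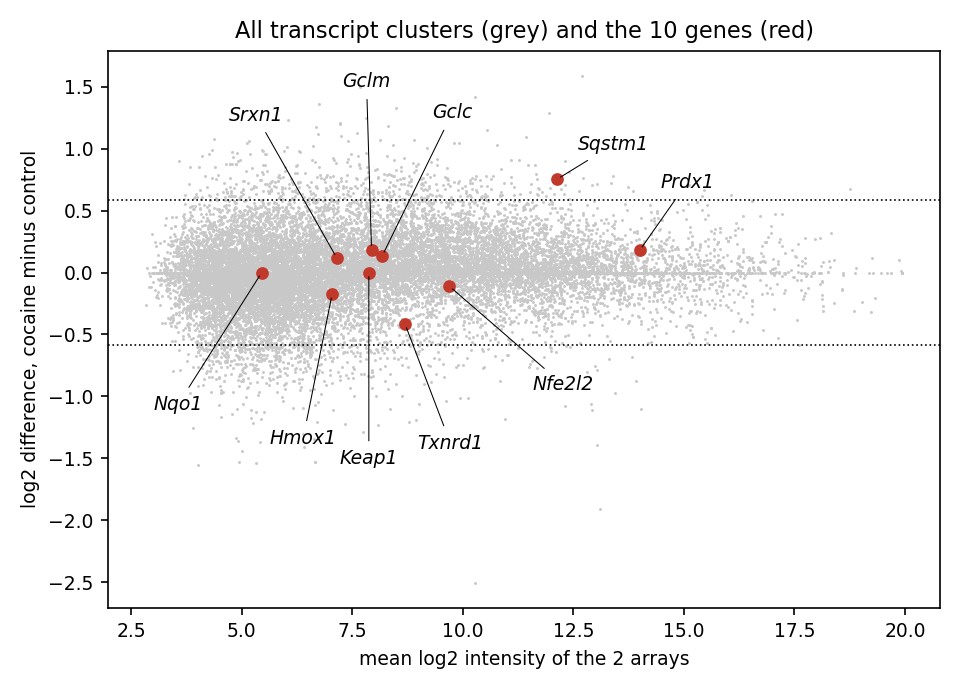
Log2 difference, cocaine minus control, against mean log2 intensity for all 23188 transcript clusters (grey), with the 10 genes in red and dotted lines at 1.5-fold. Sqstm1 stands above the upper line at a brightness where few transcript clusters do, and the other 9 lie between the lines.

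Other genes of the pathway were read from 8 lists covering regulators, targets, glutathione, thioredoxin, superoxide, NADPH oxidase, heme and iron, and p62 partners with autophagy. Of 127 genes, 116 were measured. Of these, 3 were higher by more than 1.5-fold (2.59%), 0 were lower by as much, 113 lay within 1.5-fold, and 23 were identical on both arrays. Their median difference was 0.02. The 3 higher genes were Atg7, Urod and Cbr1, 1 each from the autophagy, heme and target lists. The share of higher genes was near that of all transcript clusters, 2.09%, and 2.51% of all were lower by as much. Each of the 3 lay above the central 95% of transcript clusters of like brightness.

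Of 23 measured partners of p62 and autophagy genes, 1 was higher by more than 1.5-fold (2.09% of all) and 0 were lower (2.51%). Atg7, an enzyme that activates Atg8-family proteins for their attachment to lipid, had an intensity of 408 on the control array and 688 on the cocaine array, a log2 difference of 0.75. Tbk1, a kinase that phosphorylates p62, had an intensity of 884 (control) and 599 (cocaine), a log2 difference of -0.56. It lay at -0.62 after quantile normalization and -0.60 after lowess centring, past 1.5-fold. Map1lc3b, which encodes the LC3B protein that p62 binds on autophagosomes, was 5809 (control) and 6472 (cocaine), a log2 difference of 0.16, and the dim Map1lc3a was 57.6 and 56.6. Nbr1, Optn and Tax1bp1, which like p62 carry cargo to autophagosomes, were each identical on both arrays. So were 8 of the 23 in all, beside 27.2% of all transcript clusters. Optn, at 168 on both arrays, lay near the negative control median of 167 (control) and 169 (cocaine). Map2k5, a kinase that binds p62, differed by 0.27 on the log2 scale, and Atg16l1, which acts with Atg5 and Atg12, by 0.23. The median of the list was 0.

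Of 11 measured regulators and partners of Nrf2, 0 were higher (2.09% of all) and 0 lower (2.51%) by more than 1.5-fold. Their median was 0.11. Cul3, the scaffold of the ligase that Keap1 brings to Nrf2, was identical on both arrays, and Rbx1, its RING subunit, differed by 0.19 on the log2 scale. Gsk3b and Btrc, a kinase and a ligase subunit of the route that degrades Nrf2 without Keap1, differed by 0.36 and 0.32. Gsk3b had an intensity of 15757 on the control array and 20256 on the cocaine array. Pgam5, a mitochondrial phosphatase that binds Keap1, was the lowest at -0.36. Bach1, a repressor that competes with Nrf2 at Hmox1, differed by -0.14.

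Of 26 other measured targets of Nrf2, 1 was higher by more than 1.5-fold (2.09% of all) and 0 were lower (2.51%). Their median was 0. Cbr1, a carbonyl reductase, had an intensity of 242 on the control array and 384 on the cocaine array, a log2 difference of 0.66. Me1, which makes NADPH, was 484 (control) and 329 (cocaine), a log2 difference of -0.55. Like Tbk1 it passed 1.5-fold under quantile normalization, at -0.61, and lowess centring, at -0.59. Slc7a11, the cystine transporter subunit that feeds glutathione synthesis, was very bright at 219905 (control) and 168213 (cocaine), a log2 difference of -0.39. Ftl1, the ferritin light chain, was 45441 and 31599, a log2 difference of -0.52, whereas Fth1, the ferritin heavy chain, differed by 0.27. Ferritin genes thus lay on both sides of 0. Tbk1, Me1 and Ftl1 lay below the central 95% of transcript clusters of like brightness. Both chains are known targets of Nrf2.

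**Figure D4:**
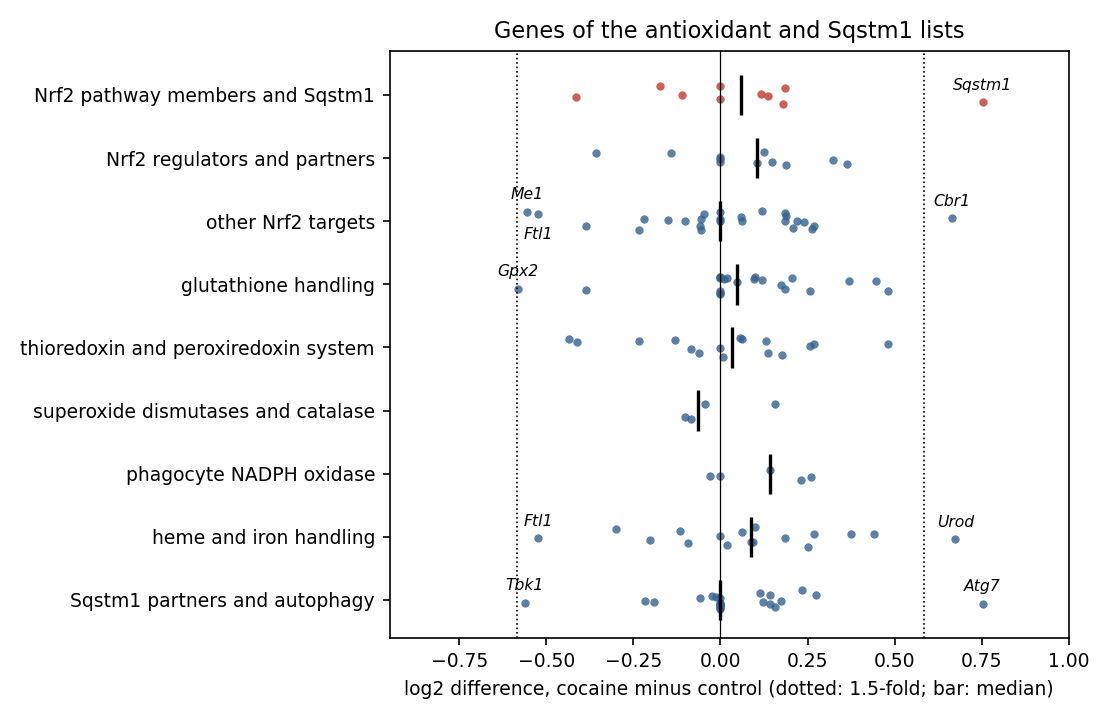
Log2 difference, cocaine minus control, of the 10 genes (red) and of the other genes of 8 pathway lists (blue, 1 point per gene), with the median of each list as a black bar and dotted lines at 1.5-fold. Past the lines lie Sqstm1, Cbr1, Urod and Atg7, all of them higher with cocaine, and a gene in 2 lists is drawn in both.

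Past 1.5-fold among the enzymes that act beside the 10 genes were 0 of 21 glutathione genes and 0 of 16 thioredoxin and peroxiredoxin genes. So were 0 of 4 superoxide dismutases and catalase and 0 of 5 NADPH oxidase genes. Of all transcript clusters, 2.09% were higher and 2.51% lower by as much, so counts of 0 in lists this short say little. Gpx4, which reduces lipid hydroperoxides, differed by 0.45 on the log2 scale, with intensities of 1943 on the control array and 2648 on the cocaine array. Txnip, which binds and inhibits thioredoxin, was 39488 (control) and 29184 (cocaine), a log2 difference of -0.44. Sesn2, a stress-inducible sestrin that binds p62 and Keap1, differed by -0.41, and the dim Msrb1, a methionine sulfoxide reductase, by 0.48. Prdx4, the peroxiredoxin of the endoplasmic reticulum, differed by 0.27. In the glutathione breakdown pathway, the dim Ggct and Ggt1 differed by 0.37 and 0.26. Sod1, Sod2 and Cat, which clear superoxide and hydrogen peroxide, differed by 0.16, -0.08 and -0.10, and the dim Sod3 by -0.04. In the phagocyte NADPH oxidase, which makes superoxide, Cyba differed by 0.26, the dim Ncf4 by 0.23, Ncf1 by 0.14 and Rac2 by -0.03.

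Of 17 genes of heme and iron handling, 1 was higher by more than 1.5-fold (2.09% of all) and 0 were lower (2.51%). Their median was 0.09. Urod, an enzyme of heme synthesis, had an intensity of 448 on the control array and 716 on the cocaine array, a log2 difference of 0.67. Alas1, which starts heme synthesis, was 444 (control) and 603 (cocaine), a difference of 0.44. Slc40a1, ferroportin, which exports iron, differed by 0.38. Hmox2, the constitutive heme oxygenase, differed by 0.25, next to -0.17 for Hmox1.

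The makeup of the RNA was read from marker lists. All 7 measured markers of immature thymocytes lay above the negative control median on both arrays. By any amount 5 of the 7 were lower with cocaine (35.9% of all transcript clusters) and 2 were higher (37.0%). The median difference of the 7 was -0.14. The coreceptor genes Cd4 and Cd8a differed by -0.27 and -0.23, Cd8b by -0.14, Arpp21 by -0.24 and Rag2, a subunit gene of the recombinase that rearranges receptor genes, by 0.35. Rag1 and Dntt, the brightest of the list, differed by -0.00056 and 0.05. The summed intensity was 1249460 on the control array and 1199600 on the cocaine array, and 454279 and 394558 without Rag1 and Dntt. Macrophages use Hmox1 and p62, and 12 of 14 macrophage markers were measured. Of these, 1 (the dim Csf1r) was higher by more than 1.5-fold, where 2.09% of all transcript clusters were. By any amount 8 of the 12 markers were higher (37.0% of all), 2 were lower (35.9%) and 2 were identical (27.2%). The median difference of the 12 was 0.15. Their summed intensity was 47850 (control) and 37816 (cocaine), a sum led by Lyz2, and 6352 and 6856 without Lyz2. At or below the median of the negative control rows on both arrays were 5 of the 12, Csf1r included. Adipocyte markers, 6 of 7 measured, summed to 8449 (control) and 4141 (cocaine), with Adipoq (-1.19) and Fabp4 (-1.08) lower by more than 1.5-fold. Of all transcript clusters, 2.51% were lower by as much. The other 4 adipocyte markers were at or below the negative control median on both arrays and summed to 323.9 and 318.8. The median difference of the 6 was -0.17. Past 1.5-fold among the markers of other cell types were Tek (0.61), an endothelial receptor gene below the negative control median on the control array, and the dim Slc4a1 (-1.34), the anion exchanger of red cells. Thymic epithelial markers summed to 5100 and 5547, endothelial markers to 1515 and 1704, neutrophil markers to 2643 and 2845, B cell markers to 624 and 674 and the dim erythroid markers to 225 and 216. The part of these cell types in the differences of the 10 genes was not tested.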

How the data were processed

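RNA from rat thymus was hybridised to 2 Clariom S arrays, 1 from a cocaine rat and 1 from a control rat, grouped by sample title. The deposited values are linear intensities, 1 for each transcript cluster, made by the authors in the TAC software. Not given in the sources used here were the software version, background correction, normalization and genome build of the array.

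The table had 24834 rows, of which 1646 were control rows and set aside. That left 23188 transcript clusters, and 15049 of them carried a single gene symbol in the platform annotation, all matched to the RefSeq gene table by gene number. The brightest transcript cluster stood for a gene. Medians were 107 (cocaine) and 108 (control), and the median log2 difference was 0. The deposited intensity was therefore taken as already normalized and put on the log2 scale with no further scaling. Members and gene lists were chosen with earlier results of these data known. The text names the 10 members, up to 4 genes per list with the largest difference (mean log2 intensity not under percentile 25 of all transcript clusters), Map1lc3a and Map1lc3b, and the 3 genes nearest to Sqstm1. Others, Bach1, Cul3, Fth1, Hmox2, Nbr1, Optn, Tax1bp1, Cd8b, Rag1, Dntt and Slc4a1 among them, were named after their values were seen. Listed genes with no named transcript cluster were not analysed here.

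With 1 array per group no test was run, and the precision is limited by the number of arrays. Alternatives were quantile normalization, centring on the median, a lowess curve (span 0.3), the mean of transcript clusters, a pseudocount of 16, a higher and a lower fold limit, and filters on dim transcript clusters. The scalings and the fold limit were tried on simulated data with planted differences. These had no identical values and a narrower spread than the arrays, so they check the code and not the results. Software comprised matplotlib 3.10.9, statsmodels 0.14.6, pandas 2.3.3 and numpy 2.4.6 under Python 3.11.15.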

Additional observations from a re-analysis of the deposited data

How the results depend on the processing

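No paired analysis was possible because there was a single array in each group, so leaving out a replicate could not be done either. Each of the 50 values of the 10 genes under 5 alternatives (3 scalings, the mean of transcript clusters and the pseudocount) moved by less than 1 robust SD of transcript clusters of like brightness. Sqstm1 ranged from 0.73 to 0.78 on the log2 scale and Txnrd1 from -0.48 to -0.39. The mean of transcript clusters could change nothing for these genes, which have 1 each. Centring on the median shifted every gene by the same 0.02, less than each robust SD, so its outcome was fixed too. At a limit of 2-fold, 0 of the 10 genes were higher, and at the lower limit, a log2 difference of 0.32, 1 gene (Txnrd1) was lower. The filters on dim transcript clusters left the counts of the 10 genes past 1.5-fold as they were. They could not change them, since Sqstm1, the only gene past the limit, is bright. Under quantile normalization, and also under lowess centring, 1 of the other Nrf2 targets (Me1) and 1 of the p62 partners and autophagy genes (Tbk1) were lower by more than 1.5-fold, against 0 of each in the main setting. Both lie close to the limit. Quantile normalization gave Keap1, identical as deposited, a difference of -0.03. Dim genes, Hmox1, Nqo1 and Srxn1 among them, are limited by signal over background.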
